A study of Mus musculus with 2 samples.

Results

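The enzymes described here attach ubiquitin to proteins or remove it: the E2 ubiquitin-conjugating enzymes of the Ube2 gene family and the ubiquitin-specific proteases of the Usp family. Members were the probes whose annotated gene symbol begins with Ube2 and a letter or with Usp and a number, without Ube2c. The rule took 189 of 45281 array probes and 86 of the 19057 genes with a named probe, namely 33 E2 genes (59 probes) and 53 USP genes (130 probes). It used names only and no measured value. It also took a few genes that are not such enzymes. Usp6nl encodes a GTPase-activating protein for Rab5, Ube2cbp an E3 ligase, Ube2d-ps is a pseudogene and Usp46os2 an antisense transcript.

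Total RNA of mouse leukaemic stem cells was hybridised to 2 Illumina bead arrays: PirBTM MLL-AF9 cells gave the first, and MLL-AF9 cells of wild-type genotype the second. Both samples came from bone marrow, were labelled 9 weeks of age and C57BL/6J background, and carried MLL-AF9, a fusion of Kmt2a (MLL) with Mllt3 (AF9) that drives acute myeloid leukaemia. The labels do not spell out the PirBTM allele. Pirb is the gene of an immune inhibitory receptor. Both arrays sat on 1 chip, so array position and genotype cannot be told apart. With 1 array per group there was no replicate, no test and no p-value between the groups, so each value below compares these samples and not the genotypes at large. The purpose of the comparison, as its design states it, was to set expression in PirBTM cells against wild-type cells.

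The arrays differed broadly, and the values here stand against that. Of all named genes, 9432 were above background on an array, with a median log2 ratio of PirBTM over wild type of -0.15. Of these, 12.8% were higher in PirBTM by 2-fold or more and 9.67% lower. As to the label of MLL-AF9 leukaemic cells, all 9 genes checked as marks of MLL-AF9 leukaemia had lower levels in PirBTM. Of these, 6 were above background in PirBTM, against 9 in wild type. Hoxa5, Hoxa10 and Eya1 were not above background in PirBTM. At least 2-fold lower were 8 of the 9, with a median log2 ratio of -3.97. Their summed linear level was 3642 in PirBTM and 18153 in wild type. Markers of other marrow cells were higher in PirBTM, with 11 of 12 erythroid markers, 11 of 11 macrophage markers, 6 of 7 B cell markers, 6 of 9 T and NK cell markers and 5 of 10 late neutrophil markers at least 2-fold higher. The summed linear level of the late neutrophil markers was 260497 in PirBTM and 138383 in wild type. In bulk RNA, more cells of a type and more RNA per cell cannot be told apart. The error of a log2 ratio was taken from pairs of probes for the same gene on these arrays: it was 0.30 (SD of a single probe, 2944 genes), or 0.17 over the 25 members with such a pair, and leaves out the variation between animals and preparations.

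Ubiquitin is activated by an E1 enzyme, handed to an E2 and placed on a target with the help of an E3 ligase. The E2 largely sets which chain is built, and chains joined through lysine 48 of ubiquitin send proteins to the proteasome while those through lysine 63 serve in signalling and DNA repair. Some E2s carry ubiquitin-like proteins instead, such as ISG15, which interferon induces, or NEDD8, which switches on cullin ligases. USP enzymes cut ubiquitin off again. In the blood system, ubiquitin enzymes are known for remodelling the proteome of maturing red cells and for tuning interferon signalling.

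Promoter windows are shown first, because Ube2l6 and Ube2e2 had the largest differences among the E2 genes while close relatives did not share them, and because CpG content differed between members that were and were not above background. Each window holds 300 bases around a RefSeq gene start on GRCm38.p6, most of them upstream. The first set holds Ube2l6, the E2 for ISG15, its relative Ube2l3, and Isg15 itself; capitals mark matches to GAAA, any 2 bases and GAAA again, a short form of the interferon-stimulated response element, searched on both strands with overlapping matches counted.
Ube2l6, chr2:84798578-84798877, plus strand: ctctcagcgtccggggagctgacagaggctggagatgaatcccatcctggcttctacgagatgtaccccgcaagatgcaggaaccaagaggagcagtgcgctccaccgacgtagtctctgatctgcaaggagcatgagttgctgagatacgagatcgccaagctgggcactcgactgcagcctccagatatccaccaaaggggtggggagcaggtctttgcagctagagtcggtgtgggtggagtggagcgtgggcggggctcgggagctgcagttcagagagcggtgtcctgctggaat
Ube2l3, chr16:17201443-17201742, minus strand: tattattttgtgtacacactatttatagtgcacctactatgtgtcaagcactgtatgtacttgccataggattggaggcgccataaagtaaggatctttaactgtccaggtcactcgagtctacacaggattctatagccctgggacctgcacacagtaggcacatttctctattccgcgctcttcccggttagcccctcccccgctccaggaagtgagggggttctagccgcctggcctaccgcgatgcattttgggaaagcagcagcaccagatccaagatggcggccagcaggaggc
Isg15, chr4:156200769-156201068, minus strand: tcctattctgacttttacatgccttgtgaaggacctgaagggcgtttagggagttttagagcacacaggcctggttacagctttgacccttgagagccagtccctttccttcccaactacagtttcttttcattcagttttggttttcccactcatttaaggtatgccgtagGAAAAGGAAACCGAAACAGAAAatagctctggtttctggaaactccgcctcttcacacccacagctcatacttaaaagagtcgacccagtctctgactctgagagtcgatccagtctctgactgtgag
The Isg15 window held 3 overlapping matches, while the Ube2l6 and Ube2l3 windows held 0. Of all 32851 windows, 3.44% held a match.

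The second set holds Ube2e2 and its relative Ube2e1, with capitals marking CpG dinucleotides. Of the 2 windows listed for Ube2e2, the one with more CpG is shown.
Ube2e2, chr14:18893364-18893663, minus strand: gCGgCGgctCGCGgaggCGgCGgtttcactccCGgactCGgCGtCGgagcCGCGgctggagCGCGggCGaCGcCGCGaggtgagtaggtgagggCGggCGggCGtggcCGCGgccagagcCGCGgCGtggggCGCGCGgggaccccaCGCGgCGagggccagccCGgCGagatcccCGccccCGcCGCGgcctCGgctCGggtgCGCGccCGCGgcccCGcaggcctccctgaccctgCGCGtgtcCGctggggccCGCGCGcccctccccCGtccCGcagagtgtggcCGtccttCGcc
Ube2e1, chr14:18331795-18332094, minus strand: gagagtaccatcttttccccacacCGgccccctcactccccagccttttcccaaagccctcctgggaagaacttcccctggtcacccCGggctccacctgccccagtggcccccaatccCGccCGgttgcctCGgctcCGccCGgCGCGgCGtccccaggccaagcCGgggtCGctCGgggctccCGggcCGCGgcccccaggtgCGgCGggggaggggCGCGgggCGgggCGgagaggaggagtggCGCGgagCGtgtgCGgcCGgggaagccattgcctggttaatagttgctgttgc
The last window is that of Usp26, a testis-expressed protease on the X chromosome, marked in the same way.
Usp26, chrX:51801184-51801483, minus strand: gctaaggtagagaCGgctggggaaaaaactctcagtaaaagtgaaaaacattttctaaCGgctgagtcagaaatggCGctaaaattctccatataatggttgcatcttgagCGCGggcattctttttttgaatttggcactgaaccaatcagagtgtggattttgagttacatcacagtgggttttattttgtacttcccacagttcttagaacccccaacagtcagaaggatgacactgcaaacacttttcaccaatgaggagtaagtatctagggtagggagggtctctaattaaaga
The windows held 55 CpG in Ube2e2, 27 in Ube2e1 and 5 in Usp26, none of whose 3 probes was above background.

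Of the 33 E2 genes, 25 were above background (detection p-value below 0.01) on at least 1 array: 20 on both, 2 in PirBTM alone and 3 in wild type alone. Of the 53 USP genes, 35 were above background: 31 on both, 4 in PirBTM alone and 0 in wild type alone. Among all 9432 named genes above background, 7858 were so on both arrays, 1143 in PirBTM alone and 431 in wild type alone. The other 8 E2 genes and 18 USP genes were above background on neither array. They included the Usp17-like genes Usp17lb, Usp17lc, Usp17ld and Usp17le, the testis-expressed Usp26, the imprinted Usp29 and the Y-linked Usp9y. The conjugating enzymes Ube2d1, Ube2r2, Ube2t, Ube2v2 and Ube2w and the proteases Usp25 and Usp34 were also not above background by any probe.

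Promoter windows of members above background held more CpG than those of members above it on neither array. Windows were listed for 46 genes above background on an array, and their 56 windows had a median of 29.5 CpG (quartiles 20.0 and 37.2). The 21 windows of members above background on neither array had a median of 17 (quartiles 2.0 and 30.0), and all 32851 windows one of 7.0. At least 10 CpG were found in 91.1% of the windows of measured members, 61.9% of those of undetected members and 43.5% of all windows. Undetected members ranged from 0 CpG in Usp17ld to 54 in Usp25. No window was listed for Usp18 or Ube2o, so neither promoter was searched. Of the interferon motif, 0 of the 56 windows of measured members and 3 of the 21 windows of undetected members (Usp17lc, Usp17ld and Usp49) held a match. Also searched were AGATAA and CCACACCC. AGATAA was in 1 of the 56 (a Ube2h window) and 0 of the 21, beside 11.2% of all windows. CCACACCC was in 1 of the 56 (Usp20) and 6 of the 21, beside 3.56% of all windows. These are matches of letters and not known sites, and the search was chosen after values were seen.

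**Figure D1:**
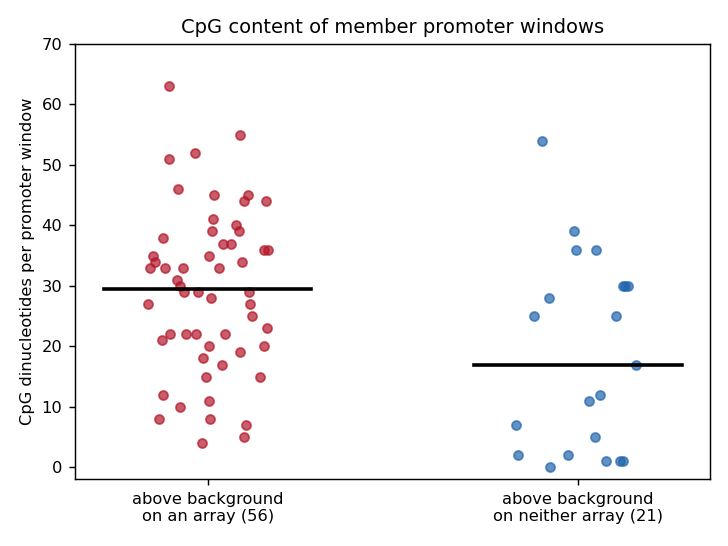
CpG dinucleotides per 300-base promoter window (y axis) for members above background on at least 1 array (56 windows, left) and on neither array (21 windows, right). Points are windows, jittered sideways, and black lines are medians (29.5 and 17); the windows at the right reach down to 0.

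As classes, the enzymes differed little from all genes in their centre. The median log2 ratio of the 25 measured E2 genes was -0.13, which lies 0.02 above the median of all genes (-0.15), and it turned to 0.10 under cyclic loess and 0.00 under median scaling, both of which also lift the median of all genes. That of the 35 USP genes was 0.08, or 0.23 above the median of all genes, and it stayed above 0 in every alternative. At least 2-fold higher in PirBTM were 6 of 25 E2 genes and 2 of 35 USP genes, beside 12.8% of all genes. At least 2-fold lower were 2 of 25 E2 genes and 1 of 35 USP genes, beside 9.67% of all genes. Without the members that are not such enzymes, these were 6 higher and 1 lower of 23 E2 genes, and 1 higher and 1 lower of 34 USP genes.

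Most USP genes lay near wild type. Within 1.5-fold of wild type, by the measured ratio or its bound, were 26 of 35 USP genes (74.3%) and 14 of 25 E2 genes (56.0%), beside 54.9% of all genes. A lower bound does not show that a gene lies within 1.5-fold. Over genes measured on both arrays the shares were 74.2% of USP genes, 65.0% of E2 genes and 56.5% of all genes. Counting only genes measured on both arrays, the interquartile range of the log2 ratio was 0.63 for 31 USP genes, 0.73 for 20 E2 genes and 0.89 for all 7858. Of the 20 E2 genes, 4 were at least 2-fold higher in PirBTM and 0 lower, and of the 31 USP genes 2 and 1, beside 9.77% and 9.86% of all 7858. The share of USP genes within 1.5-fold was above that of all genes in each of 10 settings, by 5.87 to 21.5 percentage points. The share of E2 genes within 1.5-fold was above that of all genes in 7 of the 10.

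**Figure D2:**
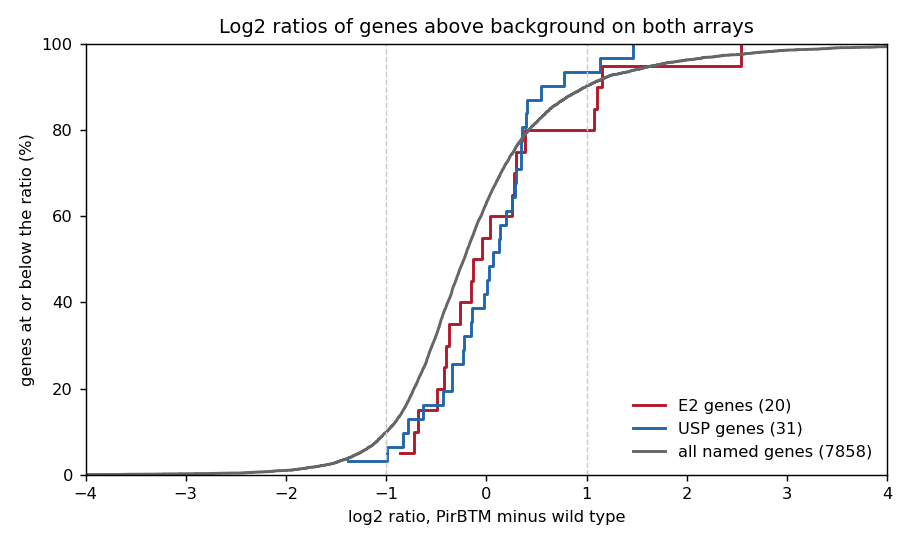
Cumulative share of genes (y axis, percent) by log2 ratio of PirBTM over wild type (x axis) for 20 E2 genes, 31 USP genes and all 7858 named genes above background on both arrays. Dashed lines mark 2-fold; the USP line is the steepest, and the E2 line has a step of 4 genes beyond 2-fold at its upper end.

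Normalization sets the sign of many of the small ratios. The scanner signal was higher on the PirBTM array for 16 of the 20 E2 genes and 24 of the 31 USP genes measured on both arrays. After background correction and quantile normalization the ratio was above 0 for 9 of the 20 and 18 of the 31, beside 2899 of all 7858 genes. The 7 E2 genes and 6 USP genes whose signal was higher but whose ratio was below 0 had log2 ratios no lower than -0.49 and -0.34. Ratios of that size are therefore given below as values, without a direction.

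Interferon-linked enzymes held the largest E2 difference. Ube2l6, the E2 that carries ISG15, had a scanner signal of 944 in PirBTM and 159 in wild type, where its detection p-value was 0.0641. On the normalized log2 scale its level was 9.50 in PirBTM and 5.38 in wild type, so it was at least 11.7-fold higher, and its probes gave measured log2 ratios of 4.12 and 3.37. The log2 bound of 3.55 depends on the processing: over the settings the ratio or bound ranged from 2.16, in the authors' values, to 4.12. The brightest probe of Usp18, the protease that takes ISG15 off and dampens the interferon receptor, read 277 in PirBTM and 140 in wild type. Usp18 was above background in PirBTM only, at a level of 6.92 against 4.74, and at least 1.96-fold higher; its second probe was above background on neither array. The bound on Usp18 is small because its level in PirBTM lay near the lowest value that counts as above background in wild type (5.95).

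The rest of the ISG15 pathway was uneven. Isg15, the modifier, had a log2 level of 7.61 in PirBTM and 6.40 in wild type and was 2.32-fold higher. Trim25, an E3 ligase for ISG15, had 10.05 in PirBTM and 9.10 in wild type, a log2 ratio of 0.95. Uba7, the E1 for ISG15, stood at 11.34 in PirBTM and 11.29 in wild type, a log2 ratio of 0.05. So the E2, the modifier and the protease were brighter in PirBTM while the E1 ratio lay inside 1 measuring SD. Many interferon-stimulated genes outside the pathway were higher on the same array: 11 of 13 were above background in PirBTM and 5 in wild type, 8 of 11 were at least 2-fold higher, and their summed linear level was 4619 in PirBTM and 1040 in wild type. Bst2 went the other way, with 6.79 in PirBTM and 7.65 in wild type (log2 ratio -0.87), Stat2 had a log2 ratio of 0.08, and Ifit1 and Mx2 were above background on neither array. Their part in the Ube2l6 and Usp18 differences was not tested.

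The E2s of red cell maturation were both higher. Ube2o, a large E2 that also acts as a ligase and strips proteins from maturing red cells, read 2863 in PirBTM and 509 in wild type by its only probe. Its log2 level was 11.32 in PirBTM and 8.77 in wild type, 5.84-fold higher. Ube2h, the E2 that works with the CTLH ligase during red cell maturation, read 316 in PirBTM and 184 in wild type, with levels of 7.28 and 6.18, and was 2.15-fold higher. The wild-type level of Ube2h lay near the lowest value above background, and its log2 ratio ranged from 0.47 to 1.40 over the settings, so its fold is uncertain.

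CTLH subunits were uneven. Of 6 measured on an array, Ranbp10 was 2.35-fold higher (11.46 in PirBTM and 10.23 in wild type) and Armc8 2.20-fold lower (9.35 in PirBTM and 10.48 in wild type). Maea, a catalytic subunit, had a log2 ratio of -0.35, and the median of the 6 was -0.12. Erythroid markers were higher on the same array: 12 of 13 were above background in PirBTM and 5 in wild type, with a summed linear level of 115309 in PirBTM and 27334 in wild type. Gata1, Klf1, Epor, Ermap, Ank1, Sptb and Car2 were not above background in wild type, and Epb42 on neither array. Their part in the Ube2o and Ube2h differences was not tested.

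**Figure D3:**
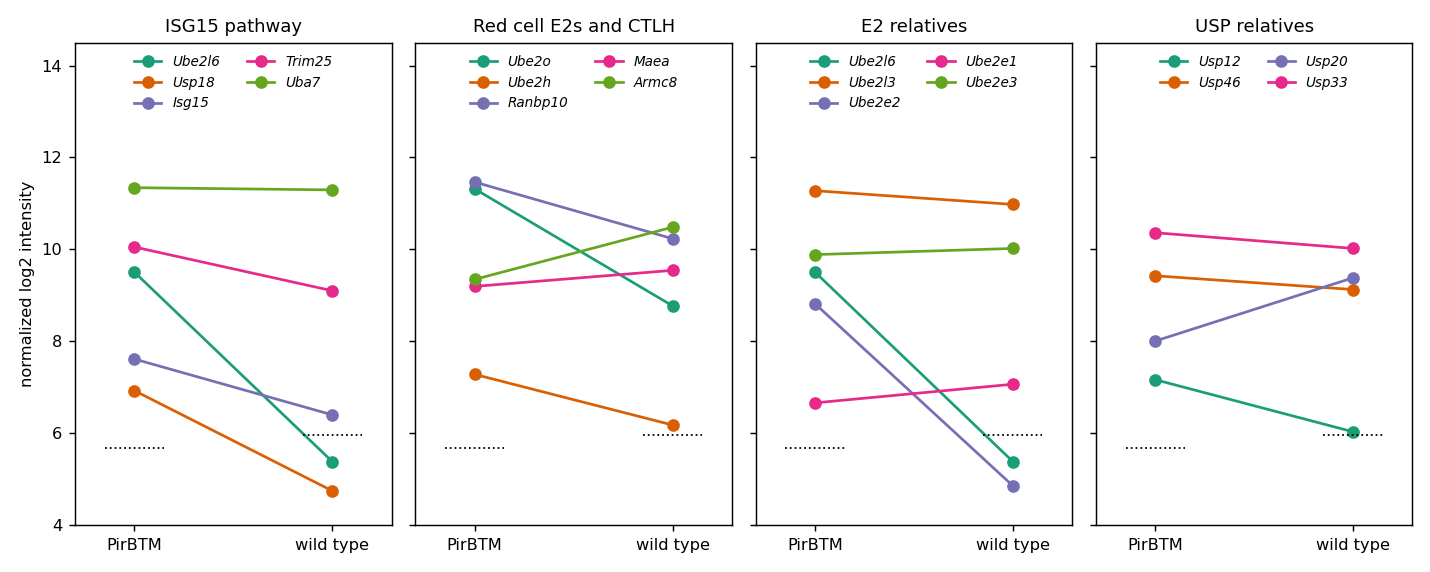
Normalized log2 intensity (y axis) on the PirBTM array (left of each panel) and the wild-type array (right) for ISG15 pathway genes, red cell E2s with CTLH subunits, E2 relatives and USP relatives. Each line joins the brightest probe of 1 gene, and dotted marks give the lowest value above background on each array (5.67 and 5.95); Ube2l6, Ube2e2 and Usp18 lie under the mark in wild type.

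Enzymes of the UBE2D and UBE2E families supply ubiquitin to many E3 ligases. Ube2e2 stood apart from the others measured. Its single probe read 643 in PirBTM and 144 in wild type, where its detection p-value was 0.253, and its level was 8.81 in PirBTM and 4.85 in wild type. It was at least 7.28-fold higher, a log2 bound of 2.86, and over the settings the ratio or bound ranged from 1.58, in the authors' values, to 3.96. Its relatives did not share this: Ube2e1 had 6.66 in PirBTM and 7.06 in wild type, a log2 ratio of -0.41, and Ube2e3 had 9.89 and 10.02, a log2 ratio of -0.13. Ube2d3 had a log2 ratio of -0.42, with -0.41 from its second probe, and Ube2d2a one of 0.26. Ube2l3, a relative of Ube2l6 that serves ligases of the HECT and RBR types, had 11.28 in PirBTM and 10.98 in wild type, a log2 ratio of 0.30. Of 6 measured genes in this group, 1 was at least 2-fold higher and 5 were within 1.5-fold. Macrophage, B cell and T and NK cell markers were also higher in PirBTM, with summed linear levels of 66817, 9016 and 10425 in PirBTM and 6598, 1850 and 7627 in wild type. Pax5, Cd4 and Cd8a were above background on neither array. The part of any of these in the Ube2e2 value was not tested.

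Among E2s of NEDD8, of lysine-63 chains and of DNA repair, Ube2f and Ube2n were higher. Ube2f, which hands NEDD8 to cullin 5, read 2607 in PirBTM and 1070 in wild type by its brightest probe. Its level was 11.18 in PirBTM and 10.02 in wild type, 2.22-fold higher, and its 4 probes gave log2 ratios of 0.82 to 1.15, all in the same direction. Cul5 had a log2 ratio of -0.42 and Nedd8 of -0.54, and 0 of 8 measured genes of the NEDD8 and cullin core differed 2-fold. Ube2n, which builds lysine-63 chains, read 492 in PirBTM and 249 in wild type, with levels of 8.29 and 7.21, and was 2.11-fold higher. Its second probe was above background on neither array, and its log2 ratio ranged from 0.67 to 1.35 over the settings. Ube2v1, its inactive partner, had a log2 ratio of 0.28.

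Ube2a and Ube2b, near-identical partners of the Rad18 ligase at stalled replication forks, gave log2 ratios of -0.69 and 0.03. Ube2a had 7.63 in PirBTM and 8.31 in wild type, by 1 probe. Ube2z, which serves the modifier FAT10, had a log2 ratio of -0.04.

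Among 5 measured E2s that build lysine-48 chains or work at the endoplasmic reticulum, Ube2g2 and Ube2k had the lowest ratios. Ube2g2, the E2 for degradation of misfolded proteins at the endoplasmic reticulum, read 187 in PirBTM and 220 in wild type. It was above background in wild type only (detection p-value 0.0171 in PirBTM), at a level of 5.58 in PirBTM and 6.85 in wild type, and was at least 2.27-fold lower. Signals this close to background make the fold uncertain, and its log2 ratio ranged from -1.27 to -0.40 over the settings. Ube2k, which builds lysine-48 chains by itself, read 2572 in PirBTM and 4032 in wild type, with levels of 11.16 and 12.02. The log2 ratios of its probes above background were -0.86 and -1.04, against a measuring SD of 0.30. Ube2j1 and Ube2j2, anchored in the membrane of the endoplasmic reticulum, gave 0.39 and -0.26, and Ube2g1 gave -0.16 with 3 probes between -0.25 and -0.16.

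Of the other measured genes with an E2 name, Ube2cbp was past 2-fold lower. It read 184 in PirBTM and 209 in wild type, above background in wild type only. Its levels were 5.51 in PirBTM and 6.69 in wild type, at least 2.03-fold lower. Its log2 ratio ranged from -1.17 to -0.33 over the settings, so the 2-fold difference was lost in some of them. Ube2q2 had 8.34 in PirBTM and 9.06 in wild type, and its 3 probes gave log2 ratios of -0.80 to -0.41. Ube2q1 gave -0.38 and Ube2s, which extends lysine-11 chains for the anaphase-promoting complex, -0.49. Ube2d-ps, above background in wild type only, had 5.38 in PirBTM and 6.22 in wild type and was at least 1.47-fold lower.

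**Figure D4:**
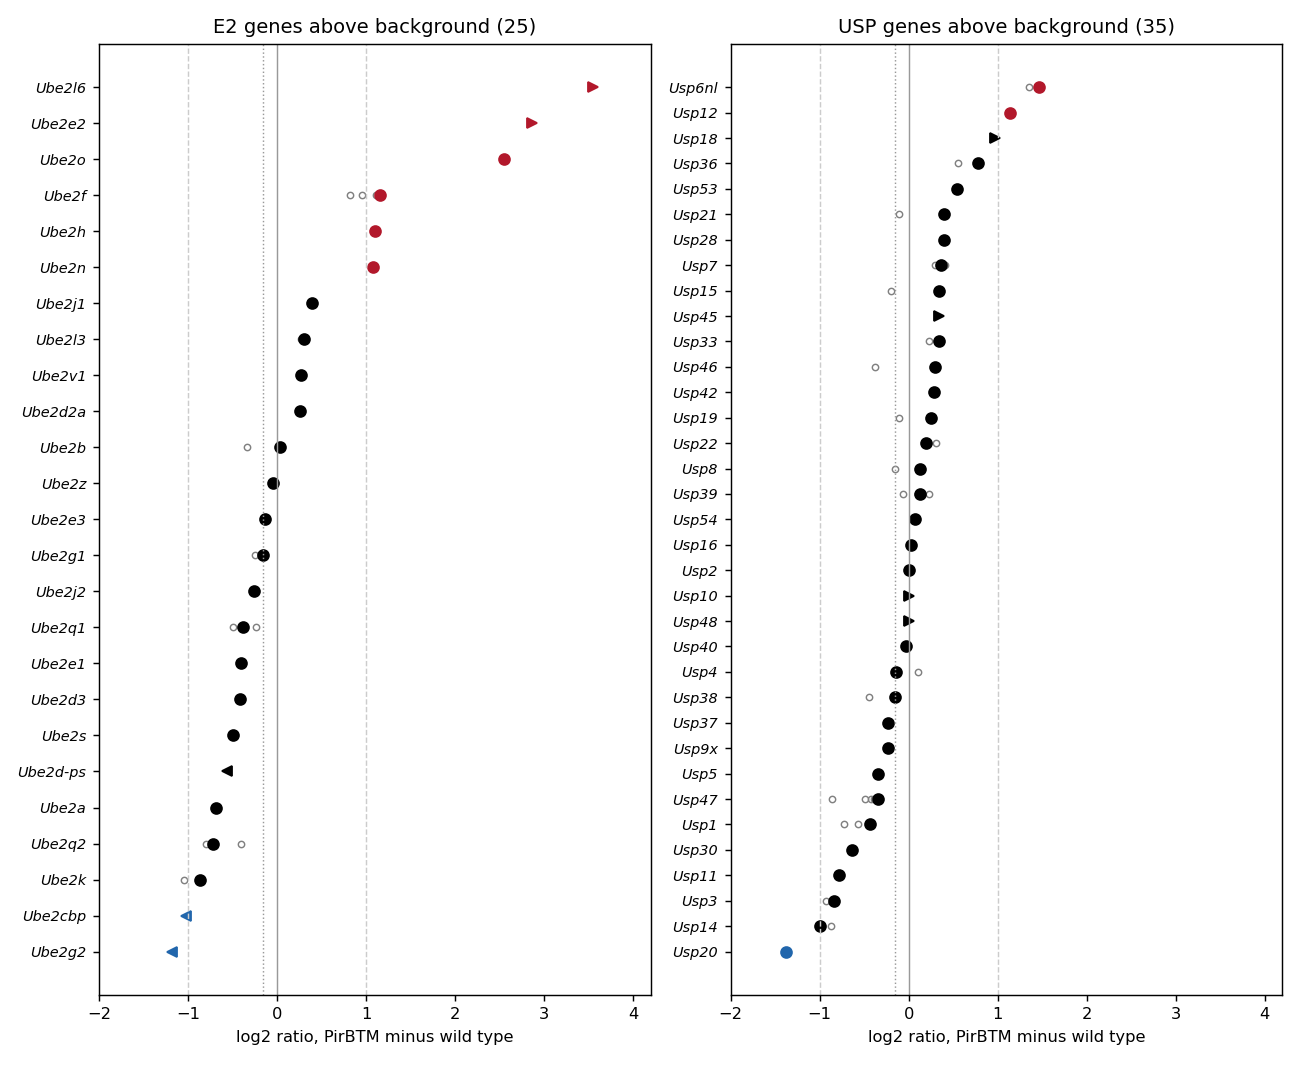
Log2 ratio of PirBTM over wild type (x axis) for each of 25 E2 genes (left) and 35 USP genes (right) above background on at least 1 array. Filled circles are brightest probes, triangles lower bounds on the size of the ratio for genes above background on 1 array only, open circles other probes above background on both arrays; dashed lines mark 2-fold (red at least 2-fold higher, blue at least 2-fold lower) and the dotted line the median of all genes.

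Among the USP genes, Usp6nl and Usp12 were at least 2-fold higher. Usp6nl, the Rab5 regulator that shares only its name's stem with the proteases, read 517 in PirBTM and 226 in wild type. Its level was 8.39 in PirBTM and 6.93 in wild type, 2.75-fold higher, with log2 ratios of 1.46 and 1.36 from 2 probes and a range of 0.89 to 1.73 over the settings. Usp12, a protease active in complex with UAF1 (Wdr48), read 302 in PirBTM and 178 in wild type, with levels of 7.16 and 6.03, and was 2.20-fold higher by 1 probe. Its wild-type level lay near the lowest value above background, and its log2 ratio ranged from 0.46 to 1.43 over the settings. Apart from Usp18, whose fold is only bounded, Usp12 was thus the one protease past 2-fold higher, and it was dim. Usp46, the closest relative of Usp12, had a log2 ratio of 0.30 by its brightest probe and -0.37 and -0.85 by the others, the last of which was above background in wild type only.

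Usp20 was the one USP gene at least 2-fold lower. This protease, known for recycling the beta2-adrenergic receptor, read 431 in PirBTM and 719 in wild type. It was 2.60-fold lower by its only probe, a log2 ratio of -1.38. Usp33, its closest relative, read 1573 in PirBTM and 1069 in wild type, with levels of 10.36 and 10.02, and its probes gave log2 ratios of 0.34 and 0.23. The log2 ratio of Usp20 minus that of Usp33 was -1.72, against a measuring SD of 0.42 for such a difference.

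Proteases of the proteasome, of DNA repair and of histones varied within 2-fold apart from Usp12. Usp14, which trims ubiquitin at the proteasome, read 217 in PirBTM and 243 in wild type. Its levels were 6.16 in PirBTM and 7.15 in wild type, with log2 ratios of -0.99 and -0.88 from 2 probes, both near background. Usp5, which takes apart free chains, had -0.34. Usp1, which frees FANCD2 and PCNA of ubiquitin, had 9.36 in PirBTM and 9.80 in wild type, with 3 probes between -0.72 and -0.43. Fancd2 itself was 2.54-fold lower (7.65 in PirBTM and 8.99 in wild type) and Fanci had a log2 ratio of -0.85. S phase and mitosis genes were lower on the same array: 16 of 17 had ratios below 0, 3 were at least 2-fold lower and their median was -0.72. Among all 9432 genes above background, 5428 had ratios below 0, 9.67% were at least 2-fold lower and the median was -0.15. The part of S phase and mitosis genes in the Usp1 value was not tested.

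Usp7, the protease of MDM2 and p53, gave 0.30 to 0.41 with 3 probes, Usp28 gave 0.40 and Usp47 gave -0.35 by its brightest probe, with 6 probes between -0.86 and -0.34. Of histone and nucleolar proteases, Usp3 had 9.74 in PirBTM and 10.57 in wild type, and its probes gave -0.84 and -0.93. Usp36, a nucleolar protease, had 8.16 in PirBTM and 7.38 in wild type, with log2 ratios of 0.78 and 0.56. Usp22, the protease of the SAGA coactivator, gave 0.19 and 0.30, and its SAGA partners Atxn7 and Atxn7l3 both gave 0.10. Usp3 and Usp36 were thus the members of this group farthest from wild type, in opposite directions. Usp16 gave 0.02. Usp21 had 8.19 in PirBTM and 7.78 in wild type, a log2 ratio of 0.40, although its second probe gave -0.11.

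The endosome and signalling group counted Usp6nl, which is no protease. By the measured ratio or its bound, the genes of this group were within 1.5-fold of wild type apart from Usp20, Usp6nl and Usp11. That left 10 of 13 measured, whose median log2 ratio with Usp20, Usp6nl and Usp11 included was 0.05 (0.00 by bounds). Usp11, which has been tied to DNA repair and TGF-beta signalling, had 5.92 in PirBTM and 6.70 in wild type, a log2 ratio of -0.78 near background. Its relatives Usp4 and Usp15 gave -0.14 and 0.35, with second probes of the opposite sign. Usp8, which acts on endosomal receptors, gave 0.13, Usp19 gave 0.25, Usp2 gave 0.00 and Usp9x gave -0.23. Usp30, a protease of the mitochondrial surface outside this group, had 6.48 in PirBTM and 7.11 in wild type, a log2 ratio of -0.63. Usp10, Usp45 and Usp48 were above background in PirBTM only, and the log2 bounds were 0 for Usp10 and Usp48 and 0.35 for Usp45. Such lower bounds do not show that these genes lay within 1.5-fold. Usp39, a splicing factor without protease activity, gave 0.12. Usp53 and Usp54, long classed as inactive, gave 0.54 and 0.07, and Usp53 had 6.69 in PirBTM and 6.15 in wild type.

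Of 25 members with at least 2 probes above background on both arrays, the probes spanned more than 0.5 in log2 ratio in 4 (Usp15, Usp21, Usp46 and Usp47), and had both signs in 8. Those of both signs were Ube2b, Usp4, Usp8, Usp15, Usp19, Usp21, Usp39 and Usp46, whose brightest probes gave log2 ratios from -0.14 to 0.40. Among 13 pairs of relatives compared, the log2 ratios or bounds differed by more than 2 measuring SDs in 6: Ube2l6 and Ube2l3, Ube2e2 and each of Ube2e1 and Ube2e3, Ube2g2 and Ube2g1, Usp20 and Usp33, and Usp11 and Usp15. How often unrelated genes differ by as much was not counted, so the 6 do not show that relatives diverge more than other genes. The measuring SD comes from probes above background on both arrays. It does not cover the bounds on Ube2l6, Ube2e2 and Ube2g2. Near-identical relatives can share signal on an array, which was not measured.

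**Figure D5:**
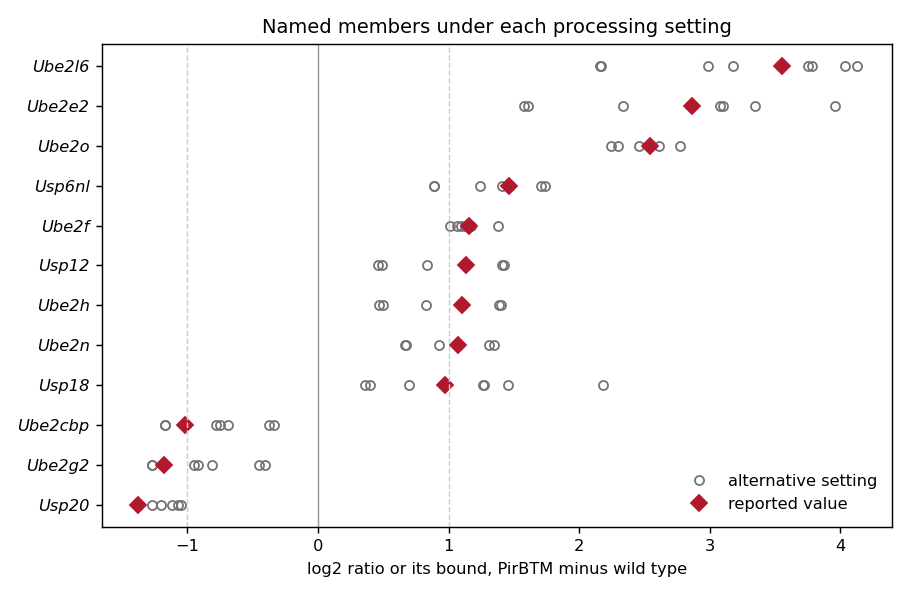
Log2 ratio of PirBTM over wild type, or its bound (x axis), for 11 members at least 2-fold apart and Usp18, 1 line each. Diamonds are the reported values, circles the same under each alternative processing and dashed lines 2-fold; Ube2l6, Ube2e2, Ube2o, Ube2f and Usp20 stay beyond 2-fold throughout, while Usp18 runs from 0.36 to 2.18.

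Outside the named families, 2-fold differences were uneven between groups of the ubiquitin machinery. In groups described above, 1 of 3 ISG15 pathway genes was at least 2-fold higher and 1 of 4 UAF1 and Fanconi partners lower. Of 6 CTLH subunits, 1 was higher and 1 lower, and of 8 NEDD8 and cullin genes 0 differed 2-fold. Of 4 ubiquitin genes listed, 0 had a probe annotated to 1 gene. Of all genes, 12.8% were at least 2-fold higher and 9.67% lower. Of 6 measured E1 genes, 0 differed 2-fold and all lay within 1.5-fold. Of 5 E2 genes without the Ube2 name, 0 were at least 2-fold higher and 2 lower. Atg10, the E2 for ATG12 in autophagy, was 3.06-fold lower and Cdc34, the E2 of SCF ligases, 2.08-fold lower. Of 24 measured deubiquitinating enzymes outside the USP family, 2 were past 2-fold higher and 0 past 2-fold lower, with a median log2 ratio of -0.29. The higher ones were Tnfaip3 (A20), a brake on NF-kB, which had 8.70 in PirBTM and 6.26 in wild type and was 5.43-fold higher, and Otub2, at least 2.64-fold higher. Of 11 measured SUMO pathway genes, 0 differed 2-fold, and their median was -0.43.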

How the data were processed

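The RNA was a Trizol extract treated with DNase, per the labels' protocols. For 45281 probes, the deposited scanner table gives a linear intensity and a detection p-value on either array, per the file headers. The deposit names these intensities as non-normalized. Their medians differ (161 and 148), so they had not been brought to a common median. A second deposited table holds the authors' normalized intensities, whose sorted columns differ by at most 0.16%. No source used here names its software.

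Intensities were corrected with limma 3.58.1 (nec on the detection p-values, offset 16) and quantile normalized on the log2 scale. These steps were checked on simulated data for probes well above background only. That check did not cover genes near background, bounds or broad differences between the arrays. Of the probes, 34885 had 1 annotated gene, 18 several and 10378 none. RefSeq (GRCm38.p6) matched 187 of 189 member probes by gene identifier, with 0 symbols changed. The brightest probe, averaged over the arrays, stood for its gene. Above background meant a detection p-value below 0.01, met by 36.2% of PirBTM and 33.4% of wild-type probes. Where 1 array only was above background, the fold is a bound against the higher of the dim value and the lowest value above background on that array. The number of arrays limits the precision.

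Members at least 2-fold apart, then the 6 highest and lowest of each class, were named with values, and the others by group. Promoters were printed for 2 of the members past 2-fold and a relative of each. Isg15 and Usp26 were chosen after values were seen. The members, lists and pairs were chosen with earlier results of these data known. The array files name no build, so coordinates are those of the RefSeq promoter windows.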

Additional observations from a re-analysis of the deposited data

How the results depend on the processing

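No paired analysis was possible because each group had 1 array. The alternatives were no background correction, cyclic loess, median scaling, the authors' normalized values, an offset of 50, a detection limit of 0.05, genes above background on both arrays only, no detection filter, the mean of probes, and, added after values were seen, leaving out members that are not such enzymes. The E2 genes at least 2-fold lower, 2 as reported, were 0 without background correction, under cyclic loess, under median scaling, in the authors' values, with the offset of 50 and with genes above background on both arrays, and 1 without non-enzymes. The USP genes at least 2-fold higher, 2 as reported, were 4 under cyclic loess and median scaling, 1 with the offset of 50 and without non-enzymes, and 0 without background correction and in the authors' values. The cause was not tested. The class medians ranged from -0.15 to 0.10 for E2 and 0.02 to 0.35 for USP genes, while the median of all genes moved from -0.15 to 0.10 under cyclic loess. Relative to it, they ranged from -0.02 to 0.13 for E2 and 0.07 to 0.32 for USP genes. Higher genes made up 57.0% of all 2-fold differences, but 75.7% under cyclic loess, 69.4% under median scaling, 67.4% in the authors' values, 68.3% without background correction, and 49.8% over genes above background on both arrays. Of 24 members named with values by rule, 0 changed sign. They were picked as at least 2-fold apart or as the highest and lowest of each class. This therefore says nothing of the signs of the other members. Ube2l6, Ube2e2, Ube2o, Ube2f and Usp20 were at least 2-fold apart in every setting that measured them. Others at or near 2-fold fell under it in some settings: Ube2n ranged from 0.67 to 1.35, Usp6nl from 0.89 to 1.73, Usp18 from 0.36 to 2.18 and Ube2cbp from -1.17 to -0.33.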
